A study of Mus musculus with 8 samples.

Results

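The genes described here are the 40 genes of a cell cycle and DNA replication list, measured in developing dopaminergic neurons of the mouse midbrain and set against the other cells of the same tissue. A probe belonged to a member when the annotated array table gives it that member's symbol, and the brightest such probe stood for the gene. All 40 members have a probe, out of 23912 named genes on the array, and 47 probes of the table carry their names. They were grouped by role, and for the comparison of phases 12 were taken as replication genes and 17 as genes of late cell cycle and mitosis.

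A dividing cell loads MCM helicases onto its DNA in G1, copies the DNA in S phase, and then builds and pulls apart a spindle in mitosis, driven in turn by D, E, A and B cyclins with their kinases. Transcripts of replication genes are made mostly at the border of G1 and S under E2F factors, and those of mitosis genes in G2 and M. In the ventral midbrain, dopaminergic neurons arise from dividing floor plate progenitors and leave the cycle when they are born, and CDK inhibitors of the Cip/Kip family hold neurons out of it.

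The sorted cells came from E14.5 mouse embryos that were Pitx3(Gfp/+), meaning that 1 of their copies of Pitx3, a transcription factor gene of midbrain dopaminergic neurons, carries the reporter Gfp. The midbrain floor was cut into a rostral and a caudal piece, and Gfp-positive cells were sorted into 4 pools of either piece, with 5 to 7 embryos behind each pool. Cy3 marked the sorted pool on every array. Cy5 marked the reference shared by all arrays, Gfp-negative cells pooled from the same dissections, which thus have the same genotype and are a mixture of cell types. Each value below is a log2 ratio, Gfp-positive pool over Gfp-negative reference, after background correction and loess, unless it is called a difference between rostral and caudal pools. A ratio of -1 is a level 2-fold below the reference. As a single control sample, the reference adds no spread of its own to the tests, and since dyes were never swapped, dye bias cannot be told apart from the sort. The p-values reflect how the 8 pools scatter, and precision is limited by the number of arrays.

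All 8 arrays were on 1 slide and in 1 scan, and 62.5% to 70.4% of probes were well above background in the sorted pools and 54% to 63.5% in the reference. The 10 genes used to check the sort, Th and Slc6a3 among them, were all higher in Gfp-positive cells, with a median ratio of 3.64. Of 12 tested genes of radial glia, the dividing progenitors of this tissue, 10 were lower, with Sox2 at -3.33 and Fabp7 at -4.86, and their per-pool medians ran from -3.38 to -2.54 in rostral pools and from -2.64 to -2.16 in caudal pools. Rostral pool 2 stood apart in a list of pericyte and mesenchyme genes, where its median was -0.24. The medians were -3.69 to -2.78 in the other rostral pools and -3.85 to -2.98 in caudal pools. The highest pools of the pericyte genes Pdgfrb, Kcnj8 and Rgs5 were at -3.74, -3.31 and -2.02, so the mesenchyme genes set that pool apart. Genes of oligodendrocyte precursors (5 of 5 lower, median -3.59), endothelium (6 of 7, -2.05) and red blood cells (10 of 10, -4.14) were also below the reference, while the per-pool medians of microglia genes ran from -0.7 to 0.96. The part of these cell types in the results below was not tested, and in such pools fewer dividing cells and less of a transcript per cell cannot be told apart.

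In Gfp-positive cells almost the whole list was below the reference. Of the 36 members tested in this comparison, 33 were lower at an adjusted p below 0.05 and 3 were higher, where limma called 71.5% of the 18559 genes tested, made up of 36.9% lower and 34.6% higher. The 33 lower members were below the reference in 8 of 8 pools, as were 28.1% of all genes tested. The median member ratio was -1.33, while the median of all genes was 0, and 24 members were lower by 2-fold or more, as were 9.72% of all genes. The 3 members above the reference were the CDK inhibitors Cdkn1a, Cdkn1b and Cdkn1c.

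Some members could be tested on their probe of the annotated table only because the reference was bright. Those probes of Ccne1, Cdk1 and Cenpf were well above background in fewer than 4 pools, and those of Cdk1 and Cenpf in 0 of 8. Ccne1 and Cdk1 also have probes outside the table that were well above background in 8 of 8 pools. The 4 members that were not tested are Ccne2 and Cdk2, which pair in the G1 to S step, and Aurkb and Ttk, kinases of mitosis, all too dim in both channels on most arrays. Among the 29 members that were well above background in both channels on all 8 arrays, 26 were lower and 3 higher, with a median of -1.41. Over the 15039 genes of that brightness, 37.6% were lower and the median was -0.01.

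**Figure D1:**
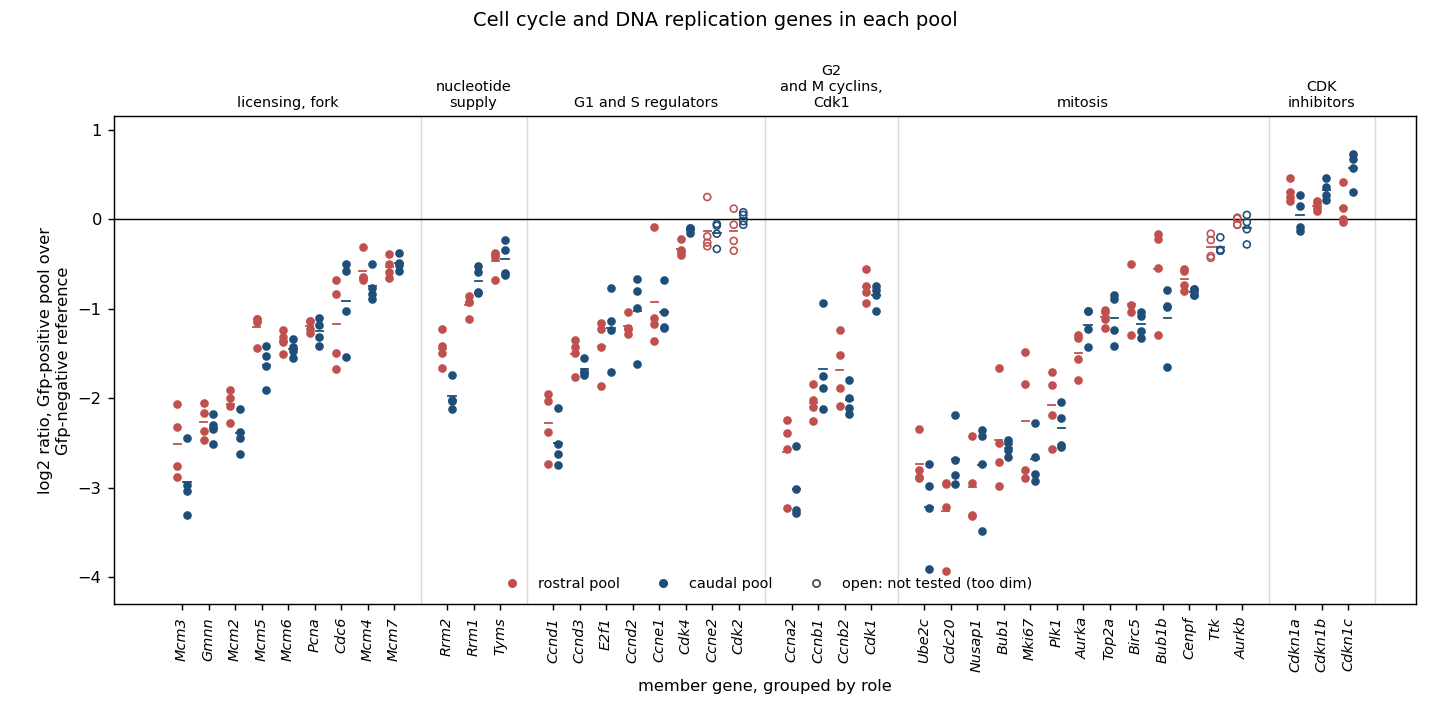
Log2 ratio of each Gfp-positive pool to the Gfp-negative reference (vertical axis) for the 40 members, grouped by role (horizontal axis), with rostral pools left of caudal pools, 4 of each. Points are pools, short lines are means, and open points are members too dim to test. The points of 33 tested members all lie below 0, and those of the 3 CDK inhibitors lie above it except in 2 pools each for Cdkn1a and Cdkn1c.

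Replication genes were lower throughout, with wide differences between subunits of 1 machine. The 9 genes of origin licensing and the replication fork were all lower, from -2.72 for Mcm3 to -0.51 for Mcm7. Both encode subunits of the MCM2-7 helicase, the ring that opens the DNA at each fork. Mcm3 had ratios of -2.06, -2.32, -2.76 and -2.88 in rostral pools, against -3.04, -2.97, -2.44 and -3.30 in caudal pools. Mcm7 had ratios of -0.39, -0.59, -0.65 and -0.50 in rostral pools, against -0.58, -0.37, -0.51 and -0.49 in caudal pools. Every pool was thus far lower for Mcm3 than for Mcm7, and for neither gene did the rostral pools separate from the caudal pools. The mean ratio over the 8 pools was -2.72 for Mcm3 (SE 0.11, 6.59-fold lower, limma adjusted p = 1.46e-08) and -0.51 for Mcm7 (SE 0.04, 1.42-fold lower, limma adjusted p = 7.08e-07). A second Mcm3 probe gave -2.96.

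The other helicase subunits lay between these values. Mcm2 had a mean ratio of -2.23, Mcm5 of -1.41, Mcm6 of -1.40 and Mcm4 of -0.66. Gmnn, the inhibitor of relicensing that is destroyed in mitosis, was at -2.30. Pcna, the sliding clamp of the polymerases, was at -1.22 with pools between -1.41 and -1.10. Cdc6, a helicase loader, was at -1.04 but was well above background in only 4 of 8 pools, so its ratio rests on dim spots.

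The 3 genes of nucleotide supply were all lower, and Rrm2 was the lowest of them. Rrm2 encodes the small, cell cycle regulated subunit of ribonucleotide reductase, which makes deoxynucleotides. Its ratios were -1.22, -1.41, -1.66 and -1.49 in rostral pools, against -2.12, -2.02, -2.03 and -1.74 in caudal pools. The mean of all pools was -1.71 (SE 0.06, limma adjusted p = 3.95e-09). The large subunit gene Rrm1 had ratios of -0.92, -0.92, -1.11 and -0.86 in rostral pools, against -0.59, -0.52, -0.81 and -0.82 in caudal pools, with a mean of -0.82. The subunit genes thus had opposite orders, with rostral pools above caudal pools for Rrm2 and below them for Rrm1. Rostral and caudal pools also did not overlap for 12.5% of all genes. The Rrm1 difference, rostral minus caudal, was -0.27 and missed the threshold (limma adjusted p = 0.161). Tyms, the thymidylate synthase gene, was at -0.37, -0.40, -0.68 and -0.42 in rostral pools, against -0.23, -0.60, -0.34 and -0.62 in caudal pools. Its mean of -0.46 (SE 0.07, limma adjusted p = 0.000349) was the highest among replication members, and with median centring in place of loess it was -0.14 and missed the threshold (adjusted p = 0.144).

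RefSeq promoters (build GRCm38.p6, 250 bases before the gene start to 50 after it) were at hand for 32 members, 10 of them replication genes and 15 mitosis genes. On either strand they were searched for 4 spellings of the E2F site (TTTCCCGC, TTTGGCGC, TTTGCCGC and TTTCGCGC), for CCAAT, the box bound by NF-Y, and for TTTGAA, the core of the CHR element known from promoters of mitosis genes. An E2F spelling stood in 5 of 10 replication promoters (50.0%), in 1 of 15 mitosis promoters (6.67%) and in 2.32% of all 27025 promoters. The 5 were those of Cdc6, Mcm3, Mcm5, Mcm6 and Mcm7, so the helicase genes with the lowest and the highest ratio both hold it. The promoters of Mcm3 (chr1:20820263-20820562, minus strand) and Mcm7 (chr5:138171834-138172133, minus strand) are shown as those of the lowest and the highest helicase gene. That of Mcm6 (chr1:128359656-128359955, minus strand) is shown as the one with the most E2F matches. Every match to any of the searched motifs is in capitals. In Mcm6 an E2F match on either strand overlaps the other in 1 run of capitals, and in Mcm7 an E2F match overlaps a CCAAT. A match describes these letters only and is not a shown binding site. Only the first listed window of a gene was searched, so a match at another start of that gene would be missed.
Mcm3: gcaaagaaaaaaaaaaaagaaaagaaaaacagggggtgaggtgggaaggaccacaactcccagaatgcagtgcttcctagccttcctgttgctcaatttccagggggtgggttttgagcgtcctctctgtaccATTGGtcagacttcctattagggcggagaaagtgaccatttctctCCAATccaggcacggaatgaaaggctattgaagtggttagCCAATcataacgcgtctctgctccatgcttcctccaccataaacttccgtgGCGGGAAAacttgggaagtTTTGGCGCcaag
Mcm7: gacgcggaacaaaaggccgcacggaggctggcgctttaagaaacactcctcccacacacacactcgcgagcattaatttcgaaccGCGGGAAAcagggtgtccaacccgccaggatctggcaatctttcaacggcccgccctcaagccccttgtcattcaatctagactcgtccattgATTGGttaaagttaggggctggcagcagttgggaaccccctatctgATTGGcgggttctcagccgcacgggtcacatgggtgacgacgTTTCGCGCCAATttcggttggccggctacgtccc
Mcm6: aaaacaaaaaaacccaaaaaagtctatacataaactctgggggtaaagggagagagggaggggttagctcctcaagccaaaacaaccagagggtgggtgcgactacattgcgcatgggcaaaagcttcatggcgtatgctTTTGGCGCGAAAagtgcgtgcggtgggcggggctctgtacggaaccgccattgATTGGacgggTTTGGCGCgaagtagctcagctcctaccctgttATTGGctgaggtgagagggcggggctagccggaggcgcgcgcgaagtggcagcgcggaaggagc

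The G1 and S regulators were lower too, and the D cyclins differed from the kinase they activate. D cyclins bind Cdk4 and Cdk6 and start the phosphorylation of Rb. Ccnd1 had ratios of -1.95, -2.37, -2.03 and -2.73 in rostral pools, against -2.51, -2.11, -2.62 and -2.74 in caudal pools. Ccnd2 had ratios of -1.04, -1.28, -1.23 and -1.21 in rostral pools, against -1.62, -0.80, -0.67 and -0.99 in caudal pools. For Ccnd3 they were -1.76, -1.43, -1.49 and -1.35 in rostral pools, against -1.74, -1.55, -1.70 and -1.71 in caudal pools. All 24 values were below 0, and rostral and caudal pools overlapped for each of the D cyclins. The means were -2.38 for Ccnd1 (SE 0.10), -1.10 for Ccnd2 (SE 0.10) and -1.59 for Ccnd3 (SE 0.05), with limma adjusted p-values of at most 5.09e-06.

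Cdk4 was the tested member closest to the reference from below. Its ratios were -0.22, -0.40, -0.36 and -0.34 in rostral pools, against -0.15, -0.11, -0.10 and -0.10 in caudal pools, so that the rostral pools were all lower than the caudal ones. The mean was -0.22 (SE 0.03, 1.17-fold lower, limma adjusted p = 2.79e-05). Further Cdk4 probes, named by accession and outside the annotated table, gave -0.64 and -0.06. The last was not called (limma adjusted p = 0.227, fit over all probes), so the size and the call both depend on the probe. E2f1, an activating E2F gene, was at -1.32 (SE 0.11). Ccne1, the cyclin of Cdk2, was at -0.98 (SE 0.13) with a single pool well above background, and at -1.49 on a brighter probe outside the table.

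Among the cyclins of G2 and M, Ccna2 was lowest on the probes of the annotated table, but Ccnb1 was lower on a brighter probe outside it. Ccna2, the A cyclin of S and G2, had ratios of -2.24, -2.39, -3.22 and -2.56 in rostral pools, against -3.01, -3.28, -2.53 and -3.25 in caudal pools. These overlapped, and the mean was -2.81 (SE 0.11, 7.01-fold lower, limma adjusted p = 1.6e-08). Ccnb1 and Ccnb2, the B cyclins of mitosis, had mean ratios of -1.86 (SE 0.12) and -1.85 (SE 0.09). The annotated probe of Cdk1, the kinase that these cyclins bind, was not well above background in any pool. Its ratios were -0.81, -0.74, -0.55 and -0.93 in rostral pools, against -0.79, -0.84, -0.74 and -1.02 in caudal pools, and at its dim spots it can be said to be at least 1.71-fold lower, a bound that is open to dye bias. Probes outside the table that were well above background in 8 of 8 pools gave -2.47 for Cdk1 and -3.46 for Ccnb1.

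On the probes of the annotated table, the genes of the mitotic machinery held the lowest ratios of the list. Ube2c, the ubiquitin-conjugating enzyme of the anaphase-promoting complex, had ratios of -2.88, -2.34, -2.89 and -2.80 in rostral pools, against -2.98, -2.73, -3.91 and -3.23 in caudal pools. Its mean was -2.97 (SE 0.13, 7.83-fold lower, limma adjusted p = 2.01e-08), and that of Cdc20, an activator of the same complex, was also -2.97 (SE 0.12). Nusap1, a spindle microtubule protein gene, followed at -2.87, the checkpoint kinase gene Bub1 at -2.51 and the mitotic kinase gene Plk1 at -2.20. Aurka, the centrosome kinase, was at -1.34, and Bub1b, a checkpoint protein gene, at -0.82.

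Mki67, the gene of the proliferation antigen Ki-67, had the widest spread between pools of the 40 members, with an SD of 0.54 over all 8. Its ratios were -1.84, -1.48, -2.89 and -2.80 in rostral pools, against -2.84, -2.66, -2.28 and -2.92 in caudal pools. Rostral pools 1 and 2 were the highest of the 8 and rostral pools 3 and 4 lay within the caudal range. The mean was -2.47 (SE 0.16, 5.52-fold lower, limma adjusted p = 4.69e-07), and a second probe outside the table gave -2.69.

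Of the mitosis genes nearest to the reference, Bub1b was bright on all arrays and the others were dim on the probes of the annotated table. Cenpf, a kinetochore protein gene, had ratios of -0.58, -0.80, -0.55 and -0.73 in rostral pools, against -0.84, -0.78, -0.85 and -0.78 in caudal pools. It was well above background in 0 pools and in the reference on 4 of 8 arrays, and was at least 1.53-fold lower. Birc5, the survivin gene, gave -1.06 with 4 pools above background, and -3.11 on a brighter probe outside the table. Top2a, the topoisomerase that untangles sister chromatids, gave -1.09 with 6 pools above background. Ttk was well above background in 0 pools and in the reference on 1 array, and Aurkb was not well above background in either channel on any array.

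**Figure D2:**
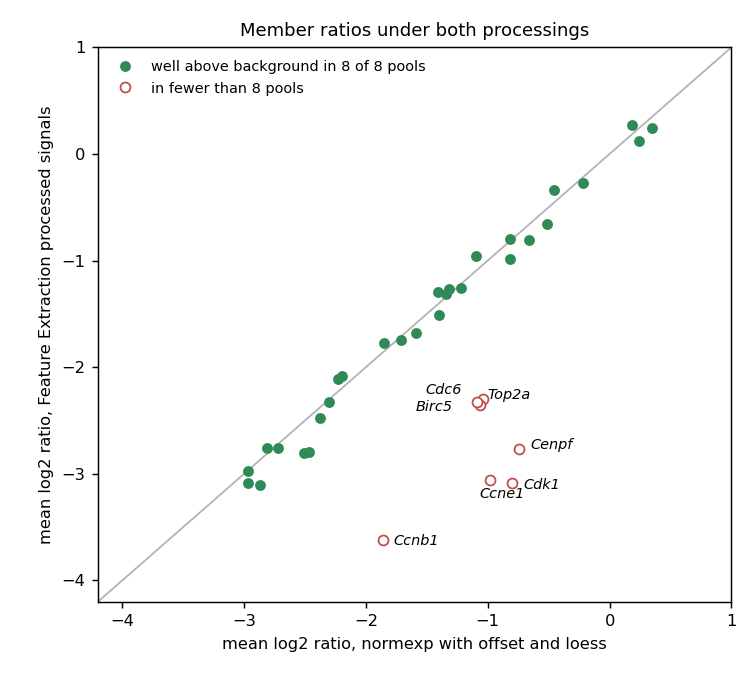
Mean log2 ratio over 8 pools for the 36 tested members after normexp (offset 50) and loess (horizontal axis) and from the Feature Extraction processed signals (vertical axis), with the line of equality. Filled points are members well above background in all 8 pools, which lie near the line, and open points are the 7 that were not, which all lie below it.

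The distance of the dim members from the reference differed between the processings, which differ in both background correction and dye normalization. In the plot of both processings, the 7 members that were below the detection limit in some pools had lower ratios in the processed signals that the scanner software writes. Cdk1 was at -3.09 there, Cenpf at -2.77, Ccne1 at -3.06 and Ccnb1 at -3.62. Birc5 was at -2.36, Top2a at -2.33 and Cdc6 at -2.30. All 33 members called lower were called lower from those signals as well.

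The CCAAT box and the CHR core were frequent in promoters of mitosis genes. A CCAAT stood in 13 of 15 mitosis promoters (86.7%), in 8 of 10 replication promoters (80.0%) and in 37.9% of all promoters. TTTGAA stood in 11 mitosis promoters (73.3%), in 1 of 10 replication promoters, that of Mcm2, and in 18.1% of all promoters. All 11 held a CCAAT as well, as did 7.12% of all promoters. The promoters of Ube2c (chr2:164769679-164769978, plus strand) and Cdc20 (chr4:118437294-118437593, minus strand) are shown as those of the members with the lowest ratios. That of Cdk1 (chr10:69352863-69353162, minus strand) is shown because it is the 1 mitosis promoter that also holds an E2F spelling. Capitals mark the matches, and in Ube2c a pair of CCAAT matches on opposite strands overlaps.
Ube2c: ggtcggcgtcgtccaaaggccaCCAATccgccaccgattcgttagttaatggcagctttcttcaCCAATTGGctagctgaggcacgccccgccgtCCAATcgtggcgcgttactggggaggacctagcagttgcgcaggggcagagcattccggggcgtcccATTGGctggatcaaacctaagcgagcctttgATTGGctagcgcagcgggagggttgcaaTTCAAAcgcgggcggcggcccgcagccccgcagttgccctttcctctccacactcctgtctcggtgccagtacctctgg
Cdc20: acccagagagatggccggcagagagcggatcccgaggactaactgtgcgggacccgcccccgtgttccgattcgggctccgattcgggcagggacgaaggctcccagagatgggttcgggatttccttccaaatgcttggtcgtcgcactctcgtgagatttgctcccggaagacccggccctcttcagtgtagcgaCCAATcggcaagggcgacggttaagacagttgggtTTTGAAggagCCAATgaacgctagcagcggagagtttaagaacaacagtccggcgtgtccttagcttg
Cdk1: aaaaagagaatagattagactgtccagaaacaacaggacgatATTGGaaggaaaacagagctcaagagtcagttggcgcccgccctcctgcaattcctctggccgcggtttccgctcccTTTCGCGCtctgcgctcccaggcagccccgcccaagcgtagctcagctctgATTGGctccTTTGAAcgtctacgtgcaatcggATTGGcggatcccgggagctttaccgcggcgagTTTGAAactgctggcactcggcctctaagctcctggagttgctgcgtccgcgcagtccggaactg

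Replication against mitosis was compared within each pool by the median ratio of the members tested. The 12 replication genes had a median of -1.23, -1.23, -1.17 and -1.26 in rostral pools, against -1.38, -1.36, -1.44 and -1.37 in caudal pools. The 15 mitosis genes had a median of -1.66, -1.48, -2.25 and -2.10 in rostral pools, against -2.17, -2.11, -1.99 and -1.88 in caudal pools. Replication genes were thus nearer to the reference than mitosis genes in 8 of 8 pools, by 0.65 ± 0.26 (SD, n = 8), with the smallest gaps in rostral pools 1 and 2. With the 11 replication and 10 mitosis members that were bright in both channels on all arrays, the gap was 1.07 ± 0.34 and ran from 0.55 to 1.50. The genes of either phase overlapped widely, as replication members ran from -2.72 to -0.46 and mitosis members from -2.97 to -0.74. This is a description of 2 chosen lists, with no test, and transcripts of different genes are measured by different probes.

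**Figure D3:**
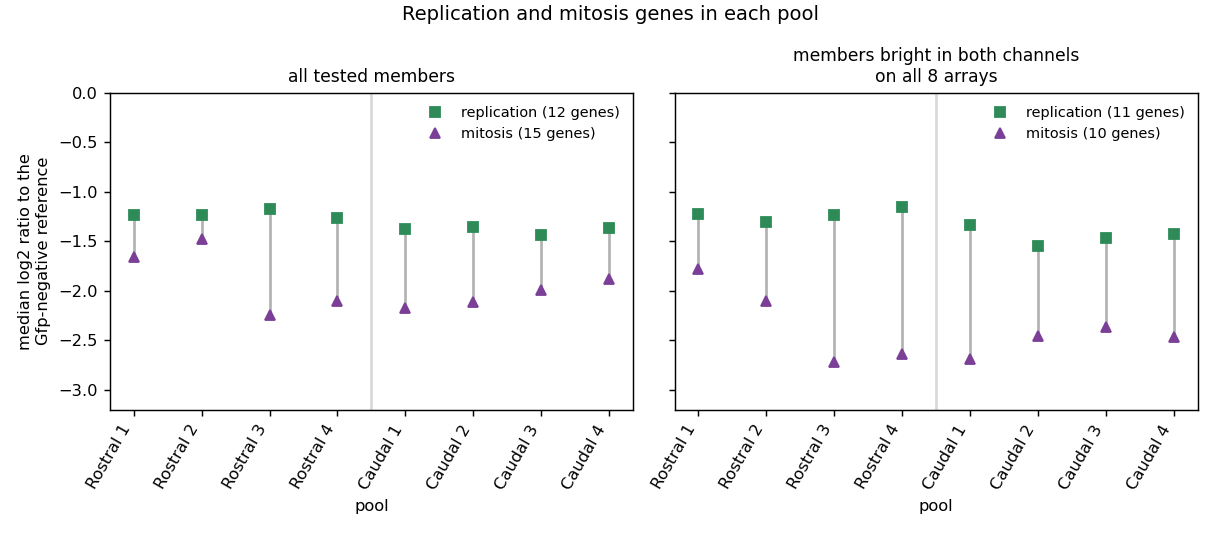
Median log2 ratio to the Gfp-negative reference (vertical axis) of replication members (squares) and mitosis members (triangles) in each of the 8 pools (horizontal axis), for the members tested (left) and for those bright in both channels on all arrays (right). The square lies above the triangle in every pool, by 0.26 to 1.08 on the left and by 0.55 to 1.50 on the right.

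The CDK inhibitors of the Cip/Kip family were slightly above the reference. Cdkn1a, the p21 gene, had ratios of 0.25, 0.46, 0.21 and 0.31 in rostral pools, against 0.27, 0.15, -0.09 and -0.13 in caudal pools. Cdkn1b, the p27 gene, had ratios of 0.21, 0.18, 0.09 and 0.13 in rostral pools, against 0.22, 0.27, 0.36 and 0.46 in caudal pools. Cdkn1c, the p57 gene, had ratios of -0.03, 0.13, 0.42 and 0.00 in rostral pools, against 0.31, 0.73, 0.68 and 0.57 in caudal pools. The caudal pools were all higher than the rostral ones for Cdkn1b, and the groups overlapped for the others. The means over 8 pools were 0.18 for Cdkn1a (SE 0.06, 1.13-fold higher, limma adjusted p = 0.0165), 0.24 for Cdkn1b (SE 0.03, 1.18-fold, adjusted p = 8.25e-05) and 0.35 for Cdkn1c (SE 0.06, 1.27-fold, adjusted p = 0.000453). A second, dimmer Cdkn1b probe gave 0.65, with the reference well above background on only 2 of 8 arrays. Further Cdkn1a probes of the annotated table, at 0.01 and -0.02, were too dim to test.

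Each part of the midbrain was also set against the reference on its own. In rostral pools 33 of 36 members were lower and 2 higher, where limma called 61.2% of all genes, 31.8% lower and 29.4% higher. In caudal pools 33 of 36 members were lower and 2 higher as well, where it called 59.4% of all genes, 31.8% lower and 27.6% higher. The inhibitors past the threshold were Cdkn1a (0.31, limma adjusted p = 0.00738) and Cdkn1b (0.15, limma adjusted p = 0.0155) in rostral pools. In caudal pools they were Cdkn1b (0.33, limma adjusted p = 0.000155) and Cdkn1c (0.57, limma adjusted p = 0.000248). Without rostral pool 2, the one with mesenchyme transcripts, Cdkn1b missed the threshold in rostral pools (0.14, adjusted p = 0.0543), as it did without rostral pool 1 (0.13, adjusted p = 0.0648) and with the processed signals (0.04). With median centring, Cdkn1a passed in caudal pools too (0.39, adjusted p = 0.00188). These comparisons share 1 reference, so their values stand side by side.

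Rostral pools were then set against caudal pools, the comparison in which the reference cancels. Of 33 members tested, 2 passed the threshold (6.06%), which is near the 6.29% of all 18097 genes that did. Of the members 1 was higher in rostral pools and 1 lower, beside 3.5% of all genes higher and 2.78% lower. The pools did not overlap for 4 members (12.1%), Rrm1, Rrm2, Cdk4 and Cdkn1b, against 12.5% of all genes. On either count the share of members was close to that of all genes.

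Rrm2 was higher in rostral pools. The difference between mean ratios, rostral minus caudal, was 0.53 (SE 0.11, 95% confidence interval 0.27 to 0.78, 1.44-fold, limma adjusted p = 0.0249), with mean ratios of -1.45 ± 0.18 in rostral pools and -1.97 ± 0.16 in caudal pools (SD, n = 4 each). Cdk4 was lower in rostral pools, by a difference of -0.21 (SE 0.05, interval -0.33 to -0.10, 1.16-fold, limma adjusted p = 0.0379), with -0.33 ± 0.08 in rostral pools and -0.12 ± 0.02 in caudal pools. Over 20 alternatives the Rrm2 call held in 10 and the Cdk4 call in 4. With rostral pool 2 left out the differences were 0.51 and -0.19 and the limma adjusted p-values 0.0626 and 0.0961. Within the 2 rows of the slide, with 2 pools of each part, the Rrm2 difference was 0.75 and 0.30 and the Cdk4 difference -0.18 and -0.25, and no member passed there. The brighter Ccne1 probe outside the table was higher in rostral pools as well (difference 0.52, limma adjusted p = 0.033 in a fit over all probes). In that fit Rrm2 passed (limma adjusted p = 0.0406), and none of the Cdk4 probes did (0.054, 0.118 and 0.144).

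**Figure D4:**
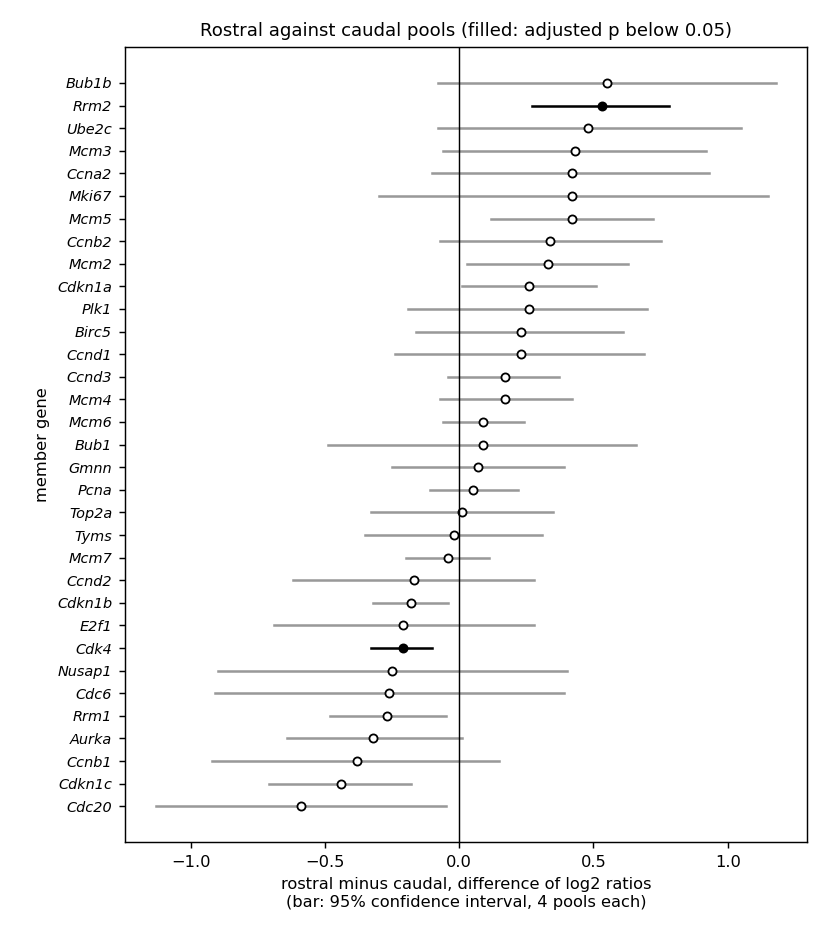
Difference of log2 ratios, rostral minus caudal (horizontal axis), for the 33 members tested (vertical axis), with 95% confidence intervals over 4 pools of each part. The filled points, Rrm2 at 0.53 and Cdk4 at -0.21, have an adjusted p below 0.05, and the points of 20 members lie above 0.

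The other differences did not pass the threshold over all genes, also where their own interval left out 0. Cdkn1c had a difference of -0.44 (interval -0.71 to -0.18, limma adjusted p = 0.0592), and it passed with the processed signals of the scanner software (adjusted p = 0.0364). Cdkn1b had a difference of -0.18 (interval -0.32 to -0.04, limma adjusted p = 0.151), and Cdkn1a of 0.26 (interval 0.01 to 0.51, limma adjusted p = 0.248). Cdc20 was at -0.59 (interval -1.13 to -0.05) and Bub1b at 0.55 (interval -0.08 to 1.18), the lowest and the highest of the 33. Genes of the MCM helicase ranged from -0.04 for Mcm7 (interval -0.20 to 0.11) to 0.43 for Mcm3 (interval -0.06 to 0.92).

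Further genes of the same pathways, from lists made for this comparison, were mostly lower as well. Of 42 other replication genes tested, 29 were lower and 6 higher in Gfp-positive cells, with a median of -0.40 beside 0 for all genes, of which 36.9% were lower and 34.6% higher. Tk1, the thymidine kinase gene of S phase, was at -3.01 and Uhrf1, which maintains DNA methylation at the fork, at -2.41. Orc4, a subunit of the origin recognition complex, was at 0.80 and Slbp, the histone mRNA binding protein gene, at 0.73. Of 49 other mitosis genes tested, 45 were lower and 1 higher, with a median of -1.34. Spc25, a kinetochore gene, was at -3.29 and Sgo1, the guardian of sister chromatid cohesion, at -3.14, and the checkpoint gene Bub3 was the 1 called higher, at 0.10. The difference between these lists was not tested.

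E2F and Rb family genes went both ways, with 5 of 12 lower and 3 higher and a median of -0.14, and these counts and those of the next lists stand beside 36.9% of all genes lower and 34.6% higher. E2f2, an activator, was at -3.10 and E2f8, a repressor of the late cycle, at -3.02, while Rb1 was at 0.90 and E2f6 at 0.30. Of 12 other inhibitors and brakes 8 were lower and 3 higher, with a median of -0.77, from Gadd45g at -2.94 and Cdkn2c, an INK4 inhibitor, at -2.05 to Trp53 at 0.34 and Gadd45a at 0.45. Of 8 checkpoint and repair genes 4 were lower and 3 higher, with a median of -0.18, with Wee1, the kinase that restrains Cdk1, at -1.52 and Rad9a at 0.30. Kinases and partners of the CDK family that postmitotic cells use were higher in 7 of 10 cases and lower in 1. Their median was 0.30, with Cdk14 at 1.72 and Cdk18 at 1.58, and the 1 lower gene was Cdk5r2, an activator of Cdk5, at -0.29.

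**Figure D5:**
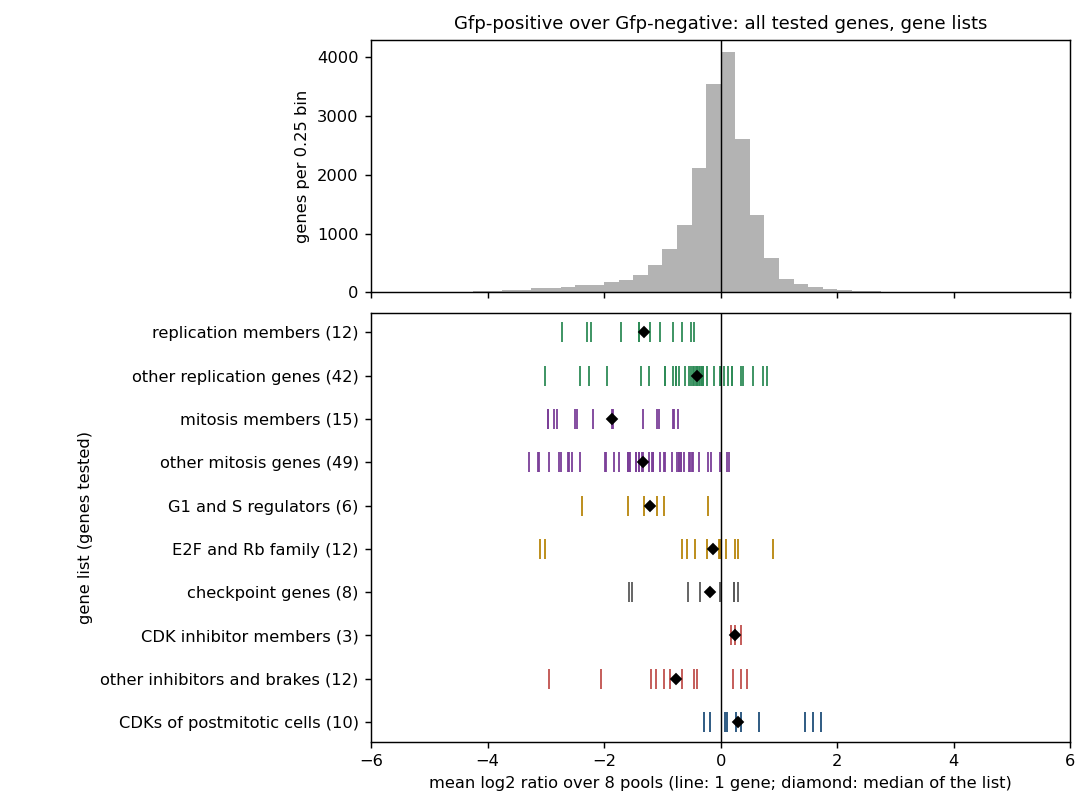
Top, number of all 18559 tested genes per bin of the mean log2 ratio of Gfp-positive pools to the Gfp-negative reference. Bottom, the same ratio (horizontal axis) for each gene (line) of the member groups and of related lists (vertical axis), with the list median (diamond), which is -1.86 for mitosis members, -1.31 for replication members and 0.24 for the CDK inhibitors.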

How the data were processed

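Gene expression was measured on 2-colour Agilent arrays, 1 per sorted pool, and samples were grouped by their titles. The authors used Agilent Feature Extraction 10.7.3.1 for the deposited spot intensity values, per the submitters' processing notes. They are median signals of spot and local background per channel, not normalized. The processed intensity columns of the same deposited files are background-subtracted and dye-normalized, per the file headers. The same notes list RMA, giving neither its version nor its use. Marks of well above background and outlier spots are scores of 0 or 1 in the deposited files. An annotation file of the whole series gave probe names, and its 8 value columns, whose names match no label, were not used.

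Background was corrected with normexp (offset 50) and ratios of Cy3 over Cy5 were normalized by loess in limma 3.58.1 (R 4.3.3, data.table, version 1.17.8), with control and outlier spots at weight 0. Of 55681 probes, 27509 were named by accession through RefSeq, 4124 by that annotation, and 24048 not. The brightest probe stood for a gene, for members the brightest that the annotation lists. A gene was tested if well above background on at least 4 of 8 arrays, in the sample channel for rostral against caudal and in either channel against the reference. Tests were limma with an intensity trend, 2-sided, adjusted by the Benjamini-Hochberg method over all genes tested. A bound ("at least") sets the reference mean against a floor in each pool, which is the dimmest signal still marked as detected or, if higher, the probe's own signal. The fits were tested on simulated data.

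The members, gene lists and tests were chosen with earlier results of these data known. Values per pool are given for the lowest and highest member of each role, members called between parts, the D cyclins, the CDK inhibitors and Mki67, and of related lists up to 2 lowest and 2 highest called genes are named. Rrm1 was given per pool, and other members by their means, after their values were seen. The replicate numbers of rostral and caudal pools come from the titles. Same-numbered pools did not deviate together (correlations 0.02, -0.01, -0.07 and -0.02), so the numbers were not taken as pairs. The labels name a pair of cell sorters without saying which pool each sorted, so that effect was not tested. Alternatives were another offset, the processed signals, median centring, other filters, the mean over probes, no trend, blocks, and each pool left out. Promoter windows came from RefSeq (GRCm38.p6), and array coordinates, on another build, were not used.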

Additional observations from a re-analysis of the deposited data

Results flagged for a closer look

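Of 72 sets of 4 pools, 1 per member and part, 3 held a pool far from the other 3, and chance flags about 1 set in 20. The flags were thus no more frequent than that rate. Rostral pool 4 had a ratio of -0.31 for Mcm4, against -0.68 to -0.64 in the other rostral pools. Rostral pool 2 had a ratio of -1.44 for Mcm5, against -1.15 to -1.11, and a ratio of -2.34 for Ube2c, against -2.89 to -2.80. So 2 of the 3 were in the pool with mesenchyme transcripts, lower in 1 case and higher in the other, and the part of those cells was not tested.

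The rostral and caudal ratios differed by limma's test for Rrm2, with a difference of 0.53, and for Cdk4, with a difference of -0.21. Of 20 alternatives, the call held in 10 for Rrm2 and in 4 for Cdk4.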

How the results depend on the processing

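Against the Gfp-negative reference the list kept its direction: over 18 alternatives 30 to 34 members were lower and 3 higher, and Tyms under median centring was the 1 member value that lost its call. Median centring shifted the median of all genes to 0.13, while its tests still set each ratio against no difference from the reference. The share of calls that were lower was then 38.5% (8408 genes higher, 5260 lower). It was 51.6% with loess (6420 higher, 6851 lower) and 46.1% with processed signals.

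In rostral pools 1 member, not 2, was higher with processed signals, where Cdkn1b was at 0.04, and 1 to 2 when each pool was left out. The caudal Cdkn1a ratio turned to -0.02 (adjusted p = 0.837) without caudal pool 1, and was 0.39 (adjusted p = 0.00188) with median centring, over a range of p from 0.00188 to 0.891. Between rostral and caudal pools, 0 members were lower and 0 higher with median centring (8 of 33 at an unadjusted p below 0.05), 0 were lower with no filter on dim probes, no intensity trend or slide row as a block, and each part held 0 to 1 when pools were left out in turn, with 717 to 1012 genes called in limma. Within slide row 1 limma called 0 of 18097 genes (2373 with unadjusted p under 0.05) and 186 in row 2, with 0 members lower and 0 higher in either row (7 and 10 members at an unadjusted p below 0.05). Of all genes, 13.1% in row 1, 13.7% in row 2 and 16.5% with median centring had an unadjusted p below 0.05. In the main fit 9 of 33 members and 19% of all genes did. With accession-named probes, chosen after seeing the data, 0 members were lower and 2 higher. The causes were not tested.

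With replicate number as a block, 0 members were higher, 724 genes were called, and Cdkn1c passed (adjusted p = 0.0322), while Rrm2 (0.0699) and Cdk4 (0.11) did not. The numbers are not shown to pair pools, and 0 of 8 pools correlated best with their own number.

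The gap between replication and mitosis medians was 1.24 with processed signals, 1.10 with accession-named probes, 1.07 with bright members, both chosen after seeing the data, and 0.59 to 0.71 when each pool was left out. It was smaller with no filter on dim probes, at 0.42, and with median centring, at 0.54. The 7 members not above background in all pools had ratios nearer to 0 with an offset of 50 than with an offset of 0, so their size is not settled by these arrays.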

Other observations

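Genes of newly born neurons and neurogenic progenitors, which share the tissue with dividing cells, went both ways. Of 8 such genes tested, 4 were lower in Gfp-positive cells and 1 higher, with a median of -0.15. Of all genes tested, 36.9% were lower and 34.6% higher. Dll1, a Notch ligand gene, was at -1.18, while Neurog2, the proneural gene of the dopaminergic lineage, was at 0.76. Dll3, another ligand gene of the family, was lower in rostral pools (-0.41 ± 0.32) than in caudal pools (0.55 ± 0.05), with a difference of -0.97 (limma adjusted p = 0.00385, SD, n = 4 each). Gli3, a Hedgehog pathway factor gene of progenitors, had -3.46 ± 0.16 in rostral and -1.17 ± 0.22 in caudal pools, a difference of -2.30 (limma adjusted p = 0.000108). Among general neuronal genes 8 of 12 were higher and 3 lower, with Nefl, a neurofilament gene, at 1.30 and Dcx at 0.82.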
